A study of Homo sapiens with 6 samples.

Results

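The RNAs described here come from 349 very long gene loci, out of 62828 loci in the deposited table. A locus was chosen by a span of at least 250 kb on hg19, a single gene name and an average of 1 FPKM or more across the 6 libraries. FPKM counts sequenced fragments per kilobase of transcript, relative to library size. Loci on chromosome Y, merged loci and 21 loci with certain names or name patterns (zinc finger, DEAD-box and DEAH-box genes, intergenic and antisense RNAs, and 7 single genes) were left out. A further 102 long loci were left out because they carried several names, a dotted name or none. The span and the mean FPKM chose the members, so neither is a finding. Before the minimum mean, 891 loci met the rule.

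The cells were K562, an established human chronic myelogenous leukemia line. They were treated with 300 nM of an siRNA that targets HNRNPU, or with control oligos, and whole-cell, nuclear and cytosolic RNA was taken from each condition. This gives 6 groups of 1 library, so no difference below has a replicate check, no test was possible within a preparation, and values describe these libraries. TRIzol was used for extraction, ribosomal RNA was removed, and libraries that keep the strand were read on a HiSeq X-10. No source used here says whether the 3 preparations of a condition shared a culture.

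HNRNPU, also called scaffold attachment factor A, is an abundant nuclear protein that binds RNA and chromatin. The transcript of a long gene is made mostly of intron, takes long to complete, and is spliced largely while it is still being made on the chromatin template. Mature mRNA then leaves through the nuclear pore, so the nuclear and cytosolic levels of an mRNA reflect its synthesis, export and decay in each compartment. Very long human genes include many that act in neurons and muscle, and several that lie in common fragile sites.

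Of the members, 347 were protein-coding and 2 were lncRNA genes (DLEU1 and MIR4435-1HG) by RefSeq type. Their median span was 360 kb, against 28.8 kb for the 8746 shorter loci that met the same naming rule and minimum mean. The longest was DMD at 2242 kb, the gene of the muscle protein dystrophin, and 8 members spanned at least 1 megabase. The mean length of a gene's annotated transcript models, of every type, had a median of 2.01 kb, against 1.54 kb. The model with the most exons had a median of 17 exons, against 10. These models are annotation and need not be the transcripts expressed here. For 320 members the RefSeq gene was itself at least 250 kb long, and for 17 it covered under 50 percent of the deposited locus. Those 17 include SLC30A10 and ALDH1A2, whose loci therefore extend past the named gene.

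Promoters are shown for 5 members that carry the results: the highest and the lowest control nuclear to cytosolic ratio (FAM19A2, RefSeq symbol TAFA2, and CAMTA1), the largest localization shift (PCLO), a large shift toward the cytosol (IGF1R), and the longest locus (DMD). Each run is 300 bases, from 250 bases before to 50 after the start of the RefSeq gene on GRCh38.p14, 5′ to 3′ on the gene's strand. Capitals mark the GC box GGGCGG on either strand (CCGCCC on the other). FAM19A2 is at chr12:62192724-62193023, minus strand. CAMTA1 is at chr1:6785204-6785503, plus strand. PCLO is at chr7:83162835-83163134, minus strand. IGF1R is at chr15:98648289-98648588, plus strand. DMD is at chrX:33339339-33339638, minus strand.
FAM19A2: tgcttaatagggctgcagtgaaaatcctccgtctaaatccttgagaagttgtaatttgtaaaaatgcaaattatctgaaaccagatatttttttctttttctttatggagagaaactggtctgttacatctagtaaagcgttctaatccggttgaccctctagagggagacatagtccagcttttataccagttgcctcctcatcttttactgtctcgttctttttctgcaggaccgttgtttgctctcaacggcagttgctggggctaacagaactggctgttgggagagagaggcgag
CAMTA1: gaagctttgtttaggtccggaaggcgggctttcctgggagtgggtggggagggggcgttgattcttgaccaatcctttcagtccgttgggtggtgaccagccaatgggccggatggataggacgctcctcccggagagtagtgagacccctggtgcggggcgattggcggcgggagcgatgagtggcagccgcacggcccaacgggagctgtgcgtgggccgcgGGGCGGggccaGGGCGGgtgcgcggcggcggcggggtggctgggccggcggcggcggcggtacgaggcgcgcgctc
PCLO: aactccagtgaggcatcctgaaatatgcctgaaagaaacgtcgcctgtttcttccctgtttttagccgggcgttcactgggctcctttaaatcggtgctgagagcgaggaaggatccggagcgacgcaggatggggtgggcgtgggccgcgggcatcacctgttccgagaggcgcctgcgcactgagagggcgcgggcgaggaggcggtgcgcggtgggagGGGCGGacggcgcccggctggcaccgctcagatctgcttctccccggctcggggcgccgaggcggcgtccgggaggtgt
IGF1R: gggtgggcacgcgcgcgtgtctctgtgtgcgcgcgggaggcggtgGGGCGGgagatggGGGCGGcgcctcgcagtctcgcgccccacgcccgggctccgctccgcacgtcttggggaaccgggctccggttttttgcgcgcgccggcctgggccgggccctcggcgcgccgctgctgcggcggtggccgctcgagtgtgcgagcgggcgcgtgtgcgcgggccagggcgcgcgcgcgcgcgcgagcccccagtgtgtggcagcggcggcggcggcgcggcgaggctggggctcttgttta
DMD: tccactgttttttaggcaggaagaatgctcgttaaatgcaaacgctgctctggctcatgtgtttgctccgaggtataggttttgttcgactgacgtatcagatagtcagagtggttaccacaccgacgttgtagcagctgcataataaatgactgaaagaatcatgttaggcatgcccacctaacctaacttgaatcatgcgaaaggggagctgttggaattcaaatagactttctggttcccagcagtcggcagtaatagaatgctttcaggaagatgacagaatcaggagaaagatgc

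The 5 promoters differed in base composition, from 42.3% G and C in FAM19A2 and 44.3% in DMD to 67.0% in PCLO, 71.3% in CAMTA1 and 79.7% in IGF1R. GC boxes were found in CAMTA1 (2), IGF1R (2) and PCLO (1), and in neither FAM19A2 nor DMD. FAM19A2 alone among the 5 held TATAAA, read on both strands. Promoters of this kind were found for 298 members. Of these, 65.4% held GGGCGG on either strand, against 73.4% of 6935 promoters of shorter loci and 44.6% of all 27305 promoters in the table. TATAAA on either strand was in 6.38% of the members' promoters, 5.19% of those of shorter loci and 12.0% of all. The letters CCGGAAG, a core bound by ETS factors, were in 10.4%, 20.4% and 10.7%. CCAAT was in 30.2%, 37.7% and 35.7%, and AGATAA, a core bound by GATA factors, in 6.71%, 4.64% and 10.5%. Motifs were counted separately, so overlapping matches count for each. The median control nuclear to cytosolic ratio (log2) was -0.18 over the 195 members with a GC box and -0.44 over the 103 without one. This difference was not tested, and shorter loci were not split by GC box. These matches describe letters in a window and do not show binding.

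The targeted gene fell in all 3 knockdown libraries. Its locus, merged with HNRNPU-AS1, had whole-cell levels of 129 (control) and 55.3 (knockdown) FPKM, nuclear levels of 163 and 63.7, and cytosolic levels of 158 and 34.9. Erythroid markers of K562 were present, such as GATA1 at 26.2 to 55.9 FPKM over the 6 libraries. The neuronal markers SNAP25 and STMN2 were listed at 0 in every library, although GAD1 was at 4.92 to 7.53 and the epithelial marker EPCAM at 10.7 to 23.7. The nuclear RNA MALAT1 had 1984 FPKM in nuclear and 141 in cytosolic control RNA. Depth was uneven: 1 FPKM over 1 kb equalled roughly 13.4 fragments in control cytosolic RNA, the shallowest library, and 39.0 in the knockdown nuclear library, the deepest.

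The first comparison asks how the RNA of very long loci was divided between nucleus and cytosol in control cells. Its measure is nuclear over cytosolic FPKM on a log2 scale, with 0.1 FPKM added to both, which understates the change of low loci. The members had a median ratio of -0.25, with an interval of -0.42 to -0.12. All intervals of medians are at 95% from ranks and cover the spread between loci, not between cultures. The median was -0.44 over all 12825 loci at the minimum mean off chromosome Y, and -0.61 over the shorter loci. Shorter loci weighted to the members' mean FPKM had -0.48, which left a gap of 0.23 toward the nucleus for the members. The sign of the members' own median depends on the scaling of the libraries, as given below. The gap to shorter loci kept its sign under all 12 alternatives tried, but several of these could hardly change it. Centring and equal totals multiply each library by a constant, which moves members and shorter loci alike. In bulk RNA, a lower level per cell and fewer cells that hold the RNA cannot be told apart.

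The gap lay mainly on the cytosolic side. Over the members, nuclear RNA stood at a median of 0.22 (log2) against whole-cell RNA in the control, close to the 0.20 of shorter loci of like mean. Cytosolic RNA stood at 0.51 against whole-cell RNA for the members and at 0.73 for shorter loci of like mean. At least 2-fold cytosolic in the control were 68 members, or 19.5%, against 28.4% of shorter loci of like mean and 29.1% of all loci. At least 2-fold nuclear were 33 members, or 9.46%, against 10.3% of shorter loci of like mean and 16.0% of all loci. Fewer members than shorter loci were thus strongly cytosolic as the values were deposited, and the share that was strongly nuclear was close to that of shorter loci. The split of 33 nuclear against 68 cytosolic members became 75 against 22 with each library centred on its median, 188 against 0 with equal totals, and 44 against 37 with quantile normalization. Those scalings moved the median ratio of all single-name loci by 0.54, 1.40 and 0.45, so a ratio is read relative to other loci here.

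The median ratio was higher in most classes of longer span than in the class before. Its control value was -0.75 below 10 kb, -0.53 from 50 to 100 kb and -0.40 from 150 to 250 kb. It was -0.41 over the 213 members from 250 to 400 kb, and -0.10 over the 136 members of 400 kb or more. These values are not weighted for mean FPKM, which differed between classes. Weighted to the members' mean FPKM, they were -0.58, -0.47, -0.35, -0.36 and -0.13, a smaller rise. Locus by locus the relation was weak: over all 9095 single-name loci the ratio had a Pearson correlation of -0.071 and a Spearman correlation of 0.086 with log2 span, which differ in sign. Across the 349 members the Spearman correlation was 0.11 with log2 span and -0.26 with log2 mean FPKM. These points share the same libraries and are not independent replicates. Past the threshold of the rule, the median was higher only in the longest class.

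**Figure D1:**
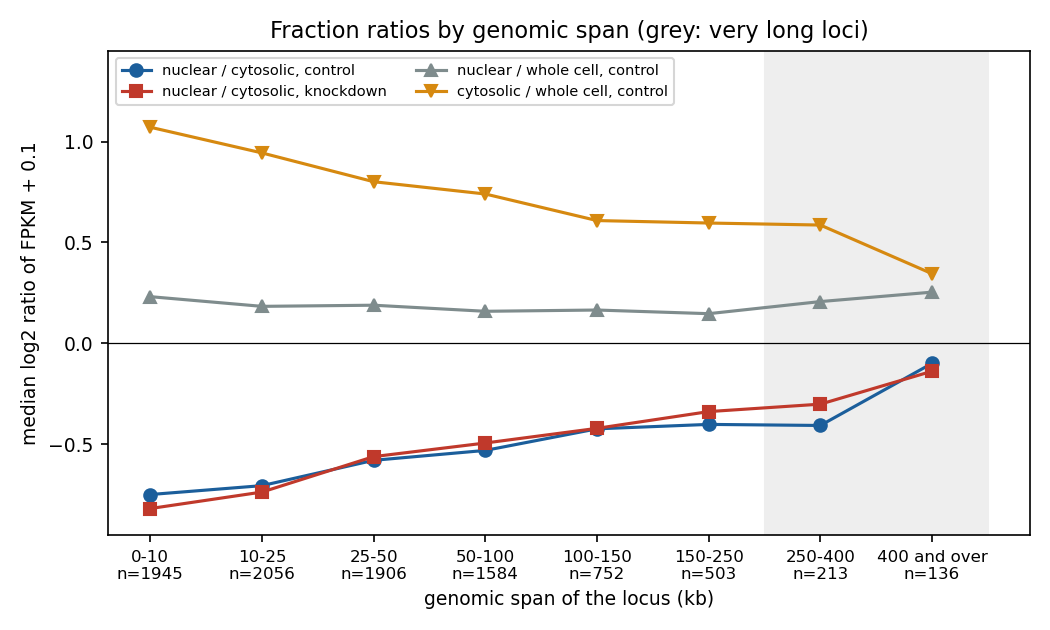
Median log2 ratio of FPKM + 0.1 (vertical axis) by class of genomic span in kb (horizontal axis), with the number of loci in each class; lines are nuclear to cytosolic in control and in knockdown, and nuclear and cytosolic to whole cell in control. The nuclear to cytosolic median rises from -0.75 to -0.10 in the control, the cytosolic to whole-cell median falls, and the nuclear to whole-cell median stays between 0.15 and 0.25. Medians are not weighted for mean FPKM.

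The gap also differed with the mean length of the annotated transcript models. The members were divided by this length into 3 classes of nearly equal size. In the shortest class, up to 1.65 kb, the median control ratio was -0.63 for 117 members and -0.63 for 4863 shorter loci of like mean. In the middle class it was -0.25 against -0.42. In the longest class, from 2.48 kb, it was 0.03 against -0.31. Very long loci with short transcript models were thus divided between the fractions as shorter loci were, and those with long models lay further to the nucleus. The lengths of the expressed mRNAs were not measured. The part of transcript length in the FPKM values themselves was not tested.

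The gap was present at every level of expression measured. From 1 to 2 FPKM the median control ratio was 0.21 over 50 members and 0.12 over shorter loci. From 16 to 32 FPKM it was -0.33 over 62 members and -0.82 over shorter loci. At 32 FPKM or more it was -0.68 over 21 members and -1.18 over shorter loci. The members were thus higher in all 6 classes of mean FPKM, and the gap was widest in the upper pair of classes.

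Single members spread widely around the median, from a log2 ratio of -2.31 to 3.36. The following names are the extremes among the 343 members with at least 0.5 FPKM in every library. At the nuclear end stood FAM19A2, which encodes a secreted chemokine-like protein (chromosome 12, 62102040 to 62672931 on hg19). It had whole-cell levels of 19.7 (control) and 11.1 (knockdown) FPKM, nuclear levels of 20.8 and 14.5, and cytosolic levels of 1.93 and 2.14. Its control ratio was 3.36, and both cytosolic values lay far below the other 4. One end of its locus overlaps that of USP15, and no source used here states whether counting used the strand. The part of that overlap in the ratio was not tested, and USP15 itself had a control ratio of 0.01.

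SHISA9, an auxiliary protein of AMPA-type glutamate receptors (chromosome 16, 12995477 to 13334272 on hg19), had whole-cell levels of 7.02 (control) and 6.80 (knockdown) FPKM, nuclear levels of 6.16 and 5.01, and cytosolic levels of 0.885 and 0.809. Both cytosolic values lay far below the other 4, and the control ratio was 2.67. IGF1R, the receptor tyrosine kinase for insulin-like growth factors (chromosome 15, 99192200 to 99507759 on hg19), had whole-cell levels of 8.86 (control) and 6.87 (knockdown) FPKM, nuclear levels of 14.0 and 12.4, and cytosolic levels of 2.47 and 5.45. Its control ratio was 2.46, and the control cytosolic library was the lowest of the 6.

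MYO18B, an unconventional myosin of muscle (chromosome 22, 26138111 to 26427007 on hg19), had whole-cell levels of 4.44 (control) and 4.14 (knockdown) FPKM, nuclear levels of 5.19 and 4.23, and cytosolic levels of 1.03 and 1.54, a control ratio of 2.22. SLC30A10, a manganese exporter (chromosome 1, 219858769 to 220131989 on hg19), had whole-cell levels of 1.59 (control) and 0.965 (knockdown) FPKM, nuclear levels of 3.05 and 1.55, and cytosolic levels of 0.650 and 1.11, a control ratio of 2.07. DNAH8, a heavy chain of axonemal dynein (chromosome 6, 38683117 to 38998301 on hg19), had whole-cell levels of 3.42 (control) and 3.39 (knockdown) FPKM, nuclear levels of 4.89 and 4.86, and cytosolic levels of 1.5 and 2.08, a control ratio of 1.64. In all 3, both cytosolic values lay below both nuclear values.

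At the cytosolic end stood CAMTA1, a calmodulin-binding transcription activator (chromosome 1, 6845384 to 7829766 on hg19), with whole-cell levels of 14.6 (control) and 13.4 (knockdown) FPKM, nuclear levels of 12.1 and 9.45, and cytosolic levels of 60.6 and 43.7. Its control ratio was -2.31, and the cytosolic values were the highest in both conditions. MAPKAP1, also called SIN1, a subunit of the mTORC2 kinase complex (chromosome 9, 128199672 to 128469513 on hg19), had whole-cell levels of 25.8 (control) and 26.4 (knockdown) FPKM, nuclear levels of 20.0 and 23.8, and cytosolic levels of 95.4 and 92.6, a control ratio of -2.25. PRKAG2, a regulatory subunit of the energy-sensing kinase AMPK (chromosome 7, 151253197 to 151574210 on hg19), had whole-cell levels of 2.48 (control) and 2.48 (knockdown) FPKM, nuclear levels of 1.89 and 2.56, and cytosolic levels of 8.93 and 6.58, a control ratio of -2.18.

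FAM107B (chromosome 10, 14560556 to 14816896 on hg19) had whole-cell levels of 1.74 (control) and 1.25 (knockdown) FPKM, nuclear levels of 0.729 and 1.12, and cytosolic levels of 3.33 and 2.07, a control ratio of -2.05. DENND1A, an exchange factor for a Rab GTPase of endosomes (chromosome 9, 126141933 to 126692431 on hg19), had whole-cell levels of 10.6 (control) and 11.4 (knockdown) FPKM, nuclear levels of 8.42 and 7.71, and cytosolic levels of 34.6 and 26.8, a control ratio of -2.02. TTC7B, part of a complex that holds a lipid kinase at the plasma membrane (chromosome 14, 91006932 to 91282823 on hg19), had whole-cell levels of 12.3 (control) and 10.3 (knockdown) FPKM, nuclear levels of 9.36 and 10.2, and cytosolic levels of 38.4 and 31.8, a control ratio of -2.02. As in CAMTA1 and MAPKAP1, the nuclear and whole-cell values of DENND1A and TTC7B differed by less than 1.5-fold in either condition, and their cytosolic values were the highest.

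**Figure D2:**
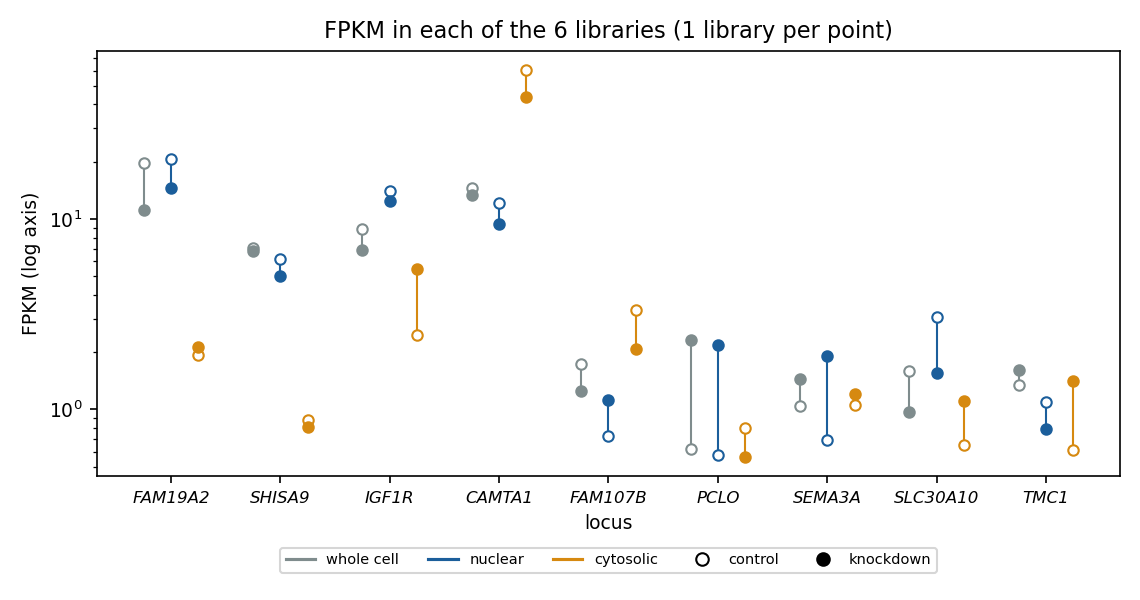
FPKM on a log axis in each of the 6 libraries for 9 members, with open points for control and filled points for knockdown and colour for the RNA preparation; each point is 1 library. FAM19A2, SHISA9 and IGF1R show cytosolic values below the other preparations, CAMTA1 and FAM107B show them above, and PCLO rises in whole-cell and nuclear RNA from 0.619 to 2.31 and from 0.574 to 2.19 FPKM.

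The most abundant members were chosen on their mean FPKM, and their levels are a description. ALDH1A2, a retinaldehyde dehydrogenase (chromosome 15, 58245622 to 58790065 on hg19), had whole-cell levels of 188 (control) and 192 (knockdown) FPKM, nuclear levels of 184 and 193, and cytosolic levels of 491 and 487. SND1, an RNA-binding nuclease (chromosome 7, 127292234 to 127732661 on hg19), had whole-cell levels of 101 (control) and 114 (knockdown) FPKM, nuclear levels of 127 and 152, and cytosolic levels of 201 and 207. PRKCB, a protein kinase C (chromosome 16, 23847322 to 24231932 on hg19), had whole-cell levels of 79.8 (control) and 75.1 (knockdown) FPKM, nuclear levels of 65.2 and 61.4, and cytosolic levels of 195 and 179. In these 3 the cytosolic values were the highest in both conditions, and knockdown and control lay within 1.5-fold of each other in each preparation.

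SMYD3, a lysine methyltransferase (chromosome 1, 245912642 to 246670614 on hg19), had a control ratio of -1.59 and 194 FPKM in control cytosolic RNA. The lncRNA host gene MIR4435-1HG (chromosome 2, 111953927 to 112252677 on hg19) had whole-cell levels of 64.6 (control) and 65.6 (knockdown) FPKM, nuclear levels of 52.8 and 60.5, and cytosolic levels of 164 and 141, and its ratio of -1.63 placed it among the cytosolic members. TUSC3, a subunit of the oligosaccharyltransferase of the endoplasmic reticulum, and MGST1, a microsomal glutathione transferase, had ratios of -0.23 and -0.80. FNDC3B was the exception among the 8 most abundant members, with 69.9 FPKM in nuclear and 45.3 in cytosolic control RNA, a ratio of 0.62.

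The longest loci did not share a pattern. DMD (chromosome X, 31115794 to 33357558 on hg19) had whole-cell levels of 8.01 (control) and 9.11 (knockdown) FPKM, nuclear levels of 10.1 and 11.7, and cytosolic levels of 9.04 and 11.0, a control ratio of 0.15. CSMD1, which encodes a membrane protein of complement regulation, had a ratio of 0.64 at 6.39 nuclear and 4.07 cytosolic FPKM in the control. FHIT, in a common fragile site, had 0.24, CNTN5, a neuronal adhesion protein, -0.96, and ANKS1B -0.26. At the lower edge of the span rule, DOCK8, MCF2L2 and EHMT1 just inside had -0.51, -0.055 and 0.15, and CWC27 and CAST just outside had -0.88 and -1.61. At the lower edge of the mean rule, FILIP1L, SEMA3E and TRDN inside had 1.03, 1.39 and -0.40, and SOX6, CD36 and NEO1 outside had 0.094, -0.67 and -0.27.

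The members were then read by role, with 10 lists drawn up by name, which hold 141 members. A further 208 members are on no list. Since the sign of a single ratio moves with the scaling, each list is read against the members' median of -0.25. Trafficking and tethering factors, which move and dock membrane vesicles, had the highest list median, 0.29 over 13 members. In that list, EXOC4 of the exocyst had 41.8 nuclear and 40.2 cytosolic FPKM in the control, and COG5 of the Golgi tethering complex had 37.5 and 30.2. NBAS had a ratio of -0.21 and LRBA, a protein of vesicle traffic, -0.44, so the list was not uniform.

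Cytoskeletal, centrosome and polarity genes had a median of 0.11 over 17 members. UTRN, the dystrophin relative utrophin, had whole-cell levels of 22.0 (control) and 24.6 (knockdown) FPKM, nuclear levels of 35.5 and 34.2, and cytosolic levels of 13.1 and 12.0, so both nuclear values were over 2-fold above both cytosolic ones. CTNNA1, an adherens junction protein, had a ratio of 0.30, DLG1, a polarity scaffold, -0.015, and MAD1L1, a spindle checkpoint protein, -1.41. The 9 ubiquitin pathway members had a median of 0.03, with the deubiquitinase USP34 at 0.033, BIRC6, an inhibitor of apoptosis, at 0.45, FAF1 at -1.08 and the ligase RFWD2, also called COP1, at -1.27.

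The list of RNA-binding and RNA-processing genes lay at the other end, with a median of -0.60 over 8 members. These are CELF2 at -1.19, SND1 at -0.65, the translation factor EIF4G3 at -0.55 and MSI2 at -0.18, with 4 more. Among the 4 is GPHN, which encodes a synaptic scaffold protein, so the name of the list does not hold for every member. Of the 8, 1 was above 0. The list drawn up for kinase, phosphatase and phosphodiesterase signaling had -0.44 over 20 members. It holds no phosphodiesterase and includes other signaling genes, such as GNAQ, RPTOR, ITPR1 and ITPR2. IGF1R and the calcium channel ITPR1 (1.33) were at the nuclear end. In that list the focal adhesion kinase PTK2 had -0.95 and the kinase TNIK -0.17.

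Metabolic and mitochondrial members had a median of -0.32 over 15, with the fatty acid synthesis enzyme ACACA at -0.06 and the sulfotransferase CHST11 at 0.27. Small GTPase regulators had -0.30 over 19, with the exchange factor TRIO at 1.08, RABGAP1L at 0.67 and RAPGEF2 at -0.30. Transcription and chromatin genes, the longest list with 34 members, had -0.21, near the members' median. TCF12 had -0.68, CUX1 -0.33 and the Mediator subunit MED13L -0.66. Common fragile site genes had -0.038 over 10 and DNA replication and repair genes -0.13 over 7, with WWOX at -0.13, IMMP2L at -0.15, the primase subunit PRIM2 at -0.095 and the SUMO ligase NSMCE2 at -1.08.

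**Figure D3:**
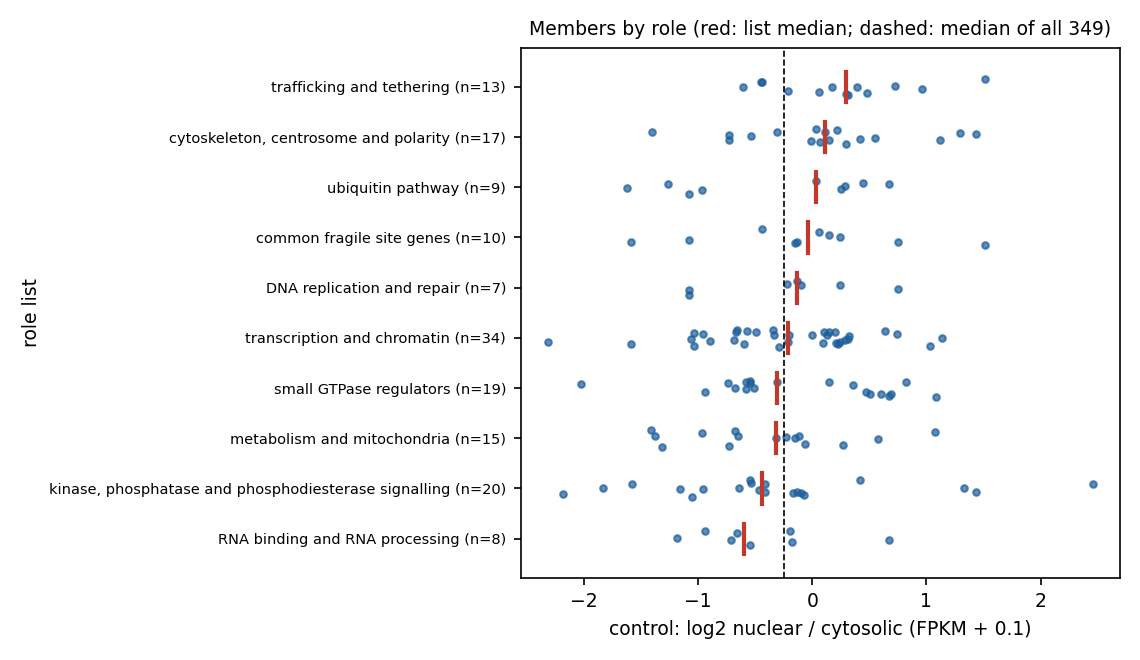
Control log2 ratio of nuclear to cytosolic FPKM + 0.1 (horizontal axis) of the members on each of 10 role lists (vertical axis, n members); points are loci, red bars list medians, and the dashed line is the median of all 349 members, -0.25. List medians run from -0.60 for RNA binding to 0.29 for trafficking, and every list spans members on both sides of the dashed line.

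The next comparison asks whether knockdown moved the RNA of very long loci between the fractions. After knockdown the median nuclear to cytosolic ratio of the members was -0.26, and shorter loci of like mean had -0.50, a gap of 0.24 that was close to the 0.23 of the control. The ratios in the control and after knockdown had a Spearman correlation of 0.84 across the members and 0.92 across the shorter loci. Nuclear exceeded cytosolic FPKM in 140 members in the control and in 133 after knockdown, and 59 members changed side. Among shorter loci it did so in 27.7% in the control and 25.6% after knockdown, and their changes of side were not counted. The 140 became 213 with centred libraries, 318 with equal totals and 170 with quantile normalization, so these counts depend on the scaling. By the correlations, the order of the members between the fractions was largely kept.

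The localization shift is the log2 ratio after knockdown minus that in the control, so a value below 0 is toward the cytosol. Its median was 0.05 over the members, with an interval from -0.01 to 0.10, and -0.0030 over shorter loci of like mean. Shorter loci of like mean had 0.053 from 50 to 100 kb, 0.049 from 100 to 150 kb and 0.057 from 150 to 250 kb. The members' median shift is thus not particular to very long loci. Toward the nucleus by at least 1.5-fold went 33 members, or 9.46%, against 6.11% of shorter loci of like mean and 7.58% of all loci. Toward the cytosol went 34, or 9.74%, against 8.47% of shorter loci of like mean and 9.19% of all loci. The split of 33 against 34 became 44 against 26 with equal library totals and 39 against 27 with quantile normalization. Over all single-name loci the median shift went from 0.0053 as deposited to 0.113 and 0.021 under these scalings. The changed splits are thus not read as a trait of the members.

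Counting sets part of this spread. A member had a median of 195 estimated fragments in its shallowest fraction library. The median counting error of a member's shift was 0.17 on the log2 scale. Of the 67 members shifted at least 1.5-fold, 58 lay beyond the 95% range of their own counting error, and 137 of all 349 did. That range covers counting only and not the spread between cultures. Counting errors were not estimated for other loci, so these counts are not read as a trait of the members.

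**Figure D4:**
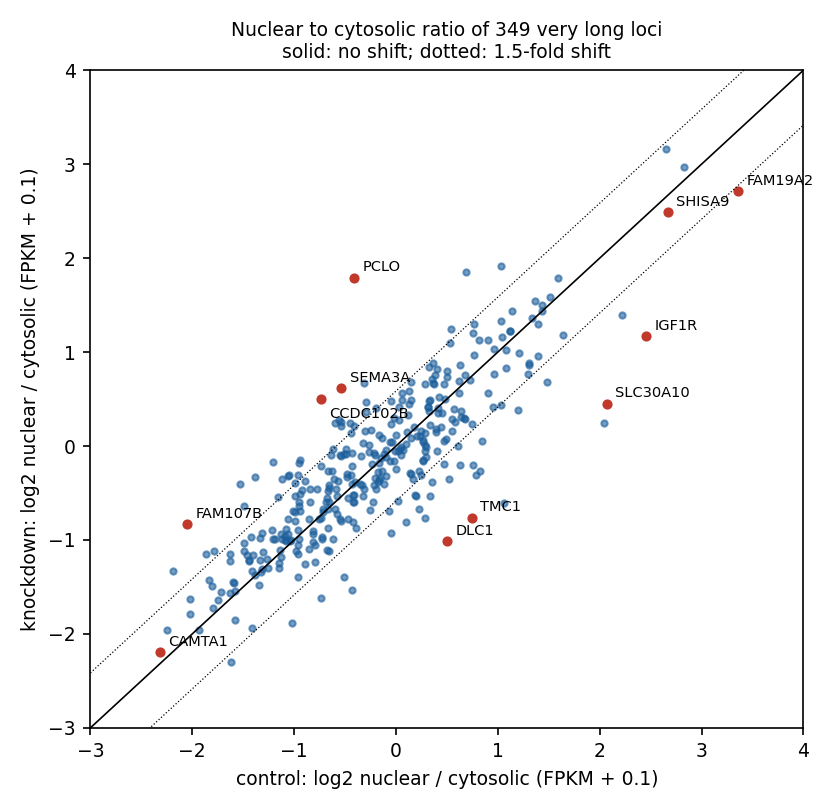
Log2 ratio of nuclear to cytosolic FPKM + 0.1 in control (horizontal axis) and after knockdown (vertical axis) for the 349 members, 1 point per locus; the solid line marks no shift, dotted lines a 1.5-fold shift, and red points are named members. Most points lie between the dotted lines, PCLO stands above them by a shift of 2.2, and IGF1R, SLC30A10, DLC1 and TMC1 stand below.

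The largest shift toward the nucleus was that of PCLO, a scaffold protein of the presynaptic active zone (chromosome 7, 82383329 to 82792246 on hg19). It had whole-cell levels of 0.619 (control) and 2.31 (knockdown) FPKM, nuclear levels of 0.574 and 2.19, and cytosolic levels of 0.796 and 0.561. The whole-cell and nuclear values after knockdown were 3.74 and 3.82 times the control, while the cytosolic value was lower. Its shift was 2.2, with a counting error of 0.36. Its mean was 1.18 FPKM and every control value was below 1 FPKM. PCLO thus met the minimum mean only through its knockdown whole-cell and nuclear values, and the rule favours such a rise. SEMA3A, a secreted guidance cue on the same chromosome (chromosome 7, 83585093 to 84122040 on hg19), had whole-cell levels of 1.04 (control) and 1.44 (knockdown) FPKM, nuclear levels of 0.692 and 1.92, and cytosolic levels of 1.05 and 1.21, a shift of 1.16 with a counting error of 0.48. Its knockdown nuclear value was the highest of the 6 and its control nuclear value the lowest. The control values of SEMA3A averaged below 1 FPKM as well, so it too met the minimum mean (1.22 FPKM) through knockdown.

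PPM1H, a serine/threonine phosphatase (chromosome 12, 63037762 to 63328817 on hg19), had whole-cell levels of 14.0 (control) and 15.5 (knockdown) FPKM, nuclear levels of 10.0 and 15.4, and cytosolic levels of 29.1 and 20.3. Nuclear RNA was higher and cytosolic RNA lower after knockdown, and the shift was 1.13 with a counting error of 0.12. IQGAP2, a scaffold of the actin cytoskeleton (chromosome 5, 75699074 to 76003957 on hg19), had whole-cell levels of 4.50 (control) and 6.88 (knockdown) FPKM, nuclear levels of 7.08 and 7.71, and cytosolic levels of 4.35 and 2.07, a shift of 1.16 with a counting error of 0.26. For IQGAP2 the knockdown cytosolic library was the lowest of the 6. FAM107B, described above, shifted by 1.22 and CCDC102B (chromosome 18, 66382446 to 66722426 on hg19) by 1.24, with counting errors of 0.52 and 0.63 at levels of a few FPKM or less.

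Toward the cytosol, the shift with the smallest counting error of the 6 named was that of DLC1, a GTPase-activating protein (chromosome 8, 12940870 to 13373167 on hg19). It had whole-cell levels of 10.2 (control) and 9.29 (knockdown) FPKM, nuclear levels of 15.1 and 9.08, and cytosolic levels of 10.6 and 18.5. Nuclear RNA was lower after knockdown (0.599 times the control) and cytosolic RNA higher (1.74 times), while whole-cell RNA was 0.911 times the control. The shift was -1.52, with a counting error of 0.14. IGF1R shifted by -1.29 with a counting error of 0.18, through its cytosolic RNA, which was 2.2 times the control while nuclear RNA was 0.883 times.

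SLC30A10 had a shift of -1.62 and a counting error of 0.42, with nuclear RNA at 0.507 and cytosolic RNA at 1.70 times the control. TMC1, a mechanotransduction channel of the inner ear (chromosome 9, 75136717 to 75451267 on hg19), had whole-cell levels of 1.34 (control) and 1.61 (knockdown) FPKM, nuclear levels of 1.10 and 0.787, and cytosolic levels of 0.615 and 1.41, a shift of -1.51 with a counting error of 0.51. LDLRAD3, a membrane protein of the LDL receptor family (chromosome 11, 35965531 to 36253686 on hg19), had whole-cell levels of 3.32 (control) and 4.15 (knockdown) FPKM, nuclear levels of 4.72 and 3.78, and cytosolic levels of 6.42 and 11.2, a shift of -1.10 with a counting error of 0.22. DPF3, a subunit of the BAF chromatin remodeling complex (chromosome 14, 73086004 to 73360809 on hg19), shifted by -1.10 with a counting error of 0.52. In SLC30A10, TMC1, LDLRAD3 and DPF3 alike, cytosolic RNA was higher after knockdown. With 1 FPKM added in place of 0.1, the shifts of members of low level kept their direction and were smaller, at 1.22 for PCLO, 0.68 for SEMA3A, 0.79 for FAM107B, 0.74 for CCDC102B, -1.02 for SLC30A10, -0.81 for TMC1 and -0.58 for DPF3.

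By role, the lowest median shifts were -0.19 for the ubiquitin pathway and -0.14 for metabolism. The highest were 0.14 for the RNA-binding list, GPHN included, and 0.24 for small GTPase regulators. Of the 19 small GTPase regulators, 2 shifted at least 1.5-fold to the nucleus and 3 to the cytosol, which include IQGAP2 and DLC1. The shares over all loci were 7.58% and 9.19%, and with lists this short nothing is read from such counts. EIF4G3 shifted by 0.45, EXOC4 by 0.44 and LRBA by 0.57, while CHST11 shifted by -0.42.

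The last comparison sets knockdown against control within each preparation. The members' median log2 knockdown ratio was 0.06 in whole-cell RNA (interval 0.02 to 0.10), as it was in shorter loci of like mean. In nuclear RNA it was 0.07 (0.04 to 0.12), against 0.02 in shorter loci of like mean. Shorter loci of like mean had 0.063 from 50 to 100 kb, 0.067 from 100 to 150 kb and 0.069 from 150 to 250 kb. The nuclear value is thus not particular to very long loci. In cytosolic RNA the members' median was 0.02 (-0.02 to 0.07), against 0.03 in shorter loci of like mean. With each library centred on its median, the whole-cell median was -0.0092, so its sign depends on the scaling.

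At least 1.5-fold higher after knockdown were 17 members in whole-cell RNA, 17 in nuclear RNA and 26 in cytosolic RNA, or 4.87%, 4.87% and 7.45%. The shares over all loci were 4.76%, 3.85% and 6.41%. At least 1.5-fold lower were 16, 10 and 14 members, or 4.58%, 2.87% and 4.01%, against 3.87%, 4.73% and 5.89% of all loci. The whole-cell split of 17 against 16 became 12 against 18 with libraries centred on their median, and the nuclear split of 17 against 10 became 25 against 7 with equal totals. Over all single-name loci, the median whole-cell ratio went from 0.069 to 0.0023 when centred. Their median nuclear ratio went from 0.035 to 0.115 with equal totals. Members higher in all 3 preparations by any amount numbered 85, or 24.4%, against 24.6% of all loci, and those lower in all 3 numbered 38, or 10.9%, against 13.2%. No member was at least 1.5-fold higher in all 3, where 0.343% of all loci were, or lower in all 3, where 0.234% were. Among shorter loci of like mean, the shares at least 1.5-fold higher were 4.48%, 2.95% and 4.98% in whole-cell, nuclear and cytosolic RNA, and those at least 1.5-fold lower were 3.69%, 4.74% and 5.02%. None of these differences in share was tested.

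**Figure D5:**
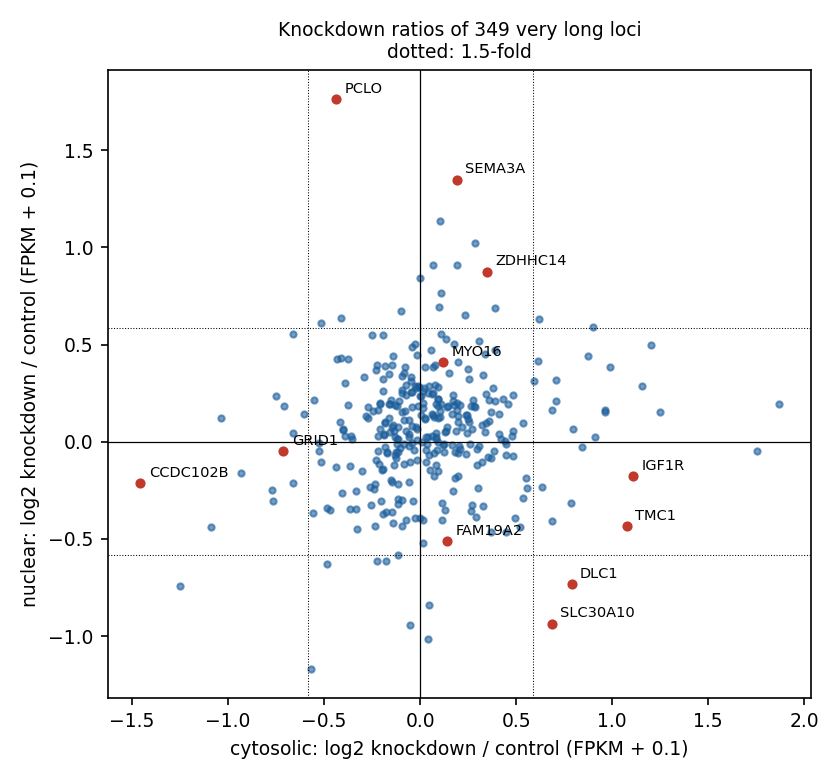
Log2 knockdown to control ratio of FPKM + 0.1 in cytosolic RNA (horizontal axis) and nuclear RNA (vertical axis) for the 349 members, 1 point per locus, with dotted lines at 1.5-fold and named members in red. SLC30A10 and DLC1 are lower in nuclear and higher in cytosolic RNA by over 1.5-fold, and PCLO and SEMA3A are the highest in nuclear RNA.

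Among members with the same sign in all 3 preparations, the highest whole-cell ratios were those of MYO16, ZDHHC14, TTC28, ZRANB3 and SIPA1L1. MYO16, an unconventional myosin of neurons (chromosome 13, 109248500 to 109860355 on hg19), had whole-cell levels of 1.32 (control) and 2.51 (knockdown) FPKM, nuclear levels of 2.15 and 2.89, and cytosolic levels of 2.24 and 2.44. ZDHHC14, a palmitoyltransferase (chromosome 6, 157802165 to 158099178 on hg19), had whole-cell levels of 1.11 (control) and 2.07 (knockdown) FPKM, nuclear levels of 1.65 and 3.11, and cytosolic levels of 1.71 and 2.2. ZRANB3, a DNA translocase that acts at stalled replication forks (chromosome 2, 135894486 to 136288806 on hg19), had whole-cell levels of 4.74 (control) and 7.91 (knockdown) FPKM, nuclear levels of 3.59 and 7.40, and cytosolic levels of 7.56 and 9.22. In all 3 the knockdown value was the higher one in each preparation, and the cytosolic difference was the smallest. TTC28 and SIPA1L1, a GTPase-activating protein for Rap, were 1.79 and 1.56 times the control in whole-cell RNA and 1.10 and 1.07 times in cytosolic RNA.

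Among the lowest whole-cell ratios with the same sign throughout were those of GRID1, ATP9B, SORCS1 and ARHGEF3. GRID1, a glutamate receptor of the delta type (chromosome 10, 87359312 to 88126250 on hg19), had whole-cell levels of 1.83 (control) and 0.951 (knockdown) FPKM, nuclear levels of 1.03 and 0.992, and cytosolic levels of 3.80 and 2.28. ARHGEF3, an exchange factor for small GTPases (chromosome 3, 56761446 to 57113357 on hg19), had whole-cell levels of 3.48 (control) and 2.22 (knockdown) FPKM, nuclear levels of 5.61 and 2.86, and cytosolic levels of 8.01 and 7.71. In ARHGEF3 the difference was largest in nuclear RNA, and in GRID1 the nuclear values nearly coincided. ATP9B, a lipid flippase, and SORCS1, a sorting receptor, were 0.573 and 0.600 times the control in whole-cell RNA and 0.936 and 0.930 times in cytosolic RNA. With 1 FPKM added, the log2 whole-cell ratios of ZDHHC14 (0.54), GRID1 (-0.54), SORCS1 (-0.44) and ARHGEF3 (-0.48) no longer reached 1.5-fold, nor did that of SIPA1L1 (0.57) with each library centred on its median. FAM19A2, with the highest control ratio, was 0.566 times the control in whole-cell and 0.700 times in nuclear RNA and 1.11 times in cytosolic RNA.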

How the data were processed

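The authors deposited a table of FPKM values with a column for each of the 6 libraries. No header names the unit, which was taken from the values and the tools. Those tools, per the submitters' processing notes, are TopHat2 2.0.13, Cuffdiff 2.2.1, FastQC and CASAVA; hg19 and mm9 are listed as builds without a stated role, and the table's coordinates are of hg19. Annotation, library scaling and use of strand in counting: not given in the sources used here, so reads of overlapping or antisense genes may be included.

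Ratios are differences of log2(FPKM + 0.1). Size rules were 2-fold for the nuclear to cytosolic ratio and 1.5-fold for shifts and knockdown ratios. Shorter loci were weighted to the members' mean FPKM in 6 bins. Fragments were estimated from the FPKM steps of single-exon loci, with the mean length of all GENCODE release 29 transcript models of a gene. RefSeq gave gene types and promoters. Named genes were those with the highest means, the longest spans, the edges of the rule, the extreme ratios and shifts, up to 4 per role list by mean FPKM, and IGF1R and DLC1; a few that the rule picked are not reported here. Members and lists were chosen with earlier results of these data known. The work used pandas 2.3.3, numpy 2.4.6, matplotlib 3.10.9 and scipy 1.17.1 under Python 3.11.15, and the calculations were tested on simulated data. Alternatives were another pseudocount, minimum mean, minimum span or scaling, and leaving out chromosome X, with 3 more chosen after seeing the data.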

Additional observations from a re-analysis of the deposited data

Results flagged for a closer look

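For 2 members the nuclear and the cytosolic knockdown ratio went opposite ways by at least 1.5-fold each. SLC30A10 had a log2 knockdown ratio of -0.94 in nuclear and 0.68 in cytosolic RNA, a difference of -1.62, with -0.67 in whole-cell RNA. DLC1 had -0.73 in nuclear and 0.79 in cytosolic RNA, a difference of -1.52, with -0.13 in whole-cell RNA. Neither difference was tested, because each group has 1 library. SLC30A10 had a mean of 1.48 FPKM and its deposited locus of 273 kb is longer than the RefSeq gene of 48.7 kb. DLC1 had a mean of 12.1 FPKM.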

How the results depend on the processing

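Of 132 values of 11 medians, gaps and counts under 12 alternatives, 106 stayed within the main interval or within 1.5 times the main count. The gap of 0.23 in the control ratio to shorter loci stayed above 0 in all 12, from 0.15 with quantile normalization to 0.34 at a minimum span of 400 kb. The median control ratio (-0.25) was 0.27 with libraries centred on their median, 1.13 with equal totals without mitochondrial and small loci, -0.012 with quantile normalization, -0.096 without a minimum mean and -0.10 at 400 kb. The median whole-cell knockdown ratio (0.06) was -0.0092 when centred and -0.0083 with quantile normalization. The nuclear one (0.07) was 0.038 when centred and 0.15 with equal totals, where the median shift (0.05) was 0.16. Counts of members shifted to the cytosol (34) and the nucleus (33) were 20 and 21 with a pseudocount of 1. They were 12 and 14 of 228 members at a minimum mean of 5 FPKM, and 80 and 68 of 542 without a minimum mean. At 400 kb they were 19 and 13 of 136, and at 150 kb 59 and 69 of 852. Members at least 2-fold nuclear (33) were 22 with a pseudocount of 1, 75 when centred and 188 with equal totals. Out of the changed member numbers just given, they were 16 at 5 FPKM, 68 without a minimum mean, 15 at 400 kb and 73 at 150 kb. Counts out of different totals are not compared here, and shares over all loci under these settings are not given.

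With equal totals, the control ratio rose above 0 in 39 of the 50 picked members below 0 as deposited. Of the 18 at least 2-fold cytosolic, 7 did so: ALDH1A2 (0.0038), CELF2 (0.23), FAF1 (0.34), MAD1L1 (0.0062), NSMCE2 (0.33), RFWD2 (0.15) and ZRANB3 (0.34). The 3 alternatives chosen after seeing the data (RefSeq gene of at least 250 kb, protein-coding loci on both sides, at least 0.5 FPKM in every library) left all 11 values within those limits. Scaling moved all single-name loci with the members. With equal totals their median moved by 1.40 in the control ratio, 0.11 in the shift and 0.080 in the nuclear knockdown ratio. With centred libraries their median whole-cell knockdown ratio moved by -0.067. Stricter minimums leave fewer members. Beyond this, the cause of the changes was not tested. No library was left out in turn and no paired analysis was possible because each group has 1 library and the labels give no replicate numbers. Depth limits the members of low level most.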

Other observations

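PCLO and SEMA3A lie on chromosome 7 with SEMA3E between them, a further member that encodes a secreted guidance cue (chromosome 7, 82993222 to 83278326 on hg19). SEMA3E had whole-cell levels of 0.659 (control) and 1.03 (knockdown) FPKM, nuclear levels of 1.52 and 1.58, and cytosolic levels of 0.516 and 0.762. Its nuclear values nearly coincided, and its shift was -0.43, the other way from its neighbours. The control values of SEMA3E averaged below 1 FPKM, so it too met the minimum mean (1.01 FPKM) through knockdown. All 3 loci were at or below 2.31 FPKM in every library.

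The 6 members under 0.5 FPKM in at least 1 library were left out of the extremes named above. Of these, 5 were looked at after their values were seen. AKAP6, an anchoring protein for protein kinase A in muscle, had whole-cell levels of 1.36 (control) and 1.04 (knockdown) FPKM, nuclear levels of 1.88 and 1.82, and cytosolic levels of 0.381 and 1.52, a shift of -1.80. CACNB2, a calcium channel subunit, had 1.43 FPKM in nuclear and 0.115 in cytosolic control RNA, and COL4A5, a basement membrane collagen, had 4.93 and 0.698. FILIP1L and MARCH1 had shifts of 0.89 and -0.80. These 5 had their lowest values in cytosolic RNA. The choice fixed this, since no member was under 0.5 FPKM in any whole-cell or nuclear library.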
